A study of Mus musculus with 18 samples.

Results

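The comparison described here is that of Htr3a-KO and control interneurons at E14.5, the embryonic age that the series used for cells in tangential migration. Its members are the 6 arrays titled as E14.5 interneurons, 3 Htr3a-KO and 3 control, of 18 arrays in the series. All cells, controls included, carried the GAD65-GFP transgene. The control group had the genotype GAD65-GFP and the mutant group the genotype Htr3a-KO;GAD65-GFP, and both were E14.5 mouse embryos. Per the labels the cells were interneurons of the caudal ganglionic eminence (CGE), dissociated from cortex and sorted by flow cytometry. The RNA on an array was that of a pool of 4 or more brains, and the 3 arrays of a group came from 3 litters. Pooling leaves the spread between single embryos unmeasured, and p-values here measure the spread between pools of different litters. The series had the same groups at E18.5 and P2, which serve below to set the E14.5 differences beside later ones. Their arrays also entered the estimate of spread behind each E14.5 p-value, the filter on dim probe sets and the choice of probe set. In a fit of the 6 E14.5 arrays alone, 0 genes passed (limma, 745 genes at an unadjusted p under 0.05).

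The CGE is a transient swelling of the ventral telencephalon that produces a large share of the interneurons of the superficial cortical layers. These cells leave the ganglionic eminence, migrate tangentially along streams into the cortex and later turn radially into the cortical plate. Htr3a encodes the obligatory subunit of the serotonin 5-HT3 receptor, a cation channel opened by serotonin, and marks interneurons of this origin. GAD65, encoded by Gad2, is an enzyme that makes GABA, and its promoter labels GABAergic cells in general. The comparison asks which transcripts differ between migrating cells of the 2 genotypes.

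The 6 arrays had medians of 6.35 to 6.39 log2 intensity. The difference between 3′ and 5′ control probe sets, a measure of RNA integrity, was 1.99, 1.81 and 1.63 for Gapdh in control arrays 1 to 3 and 1.83, 1.55 and 1.98 in Htr3a-KO arrays 1 to 3. For actin it was 0.76, 0.57 and 0.65 in control and 0.65, 0.94 and 0.81 in Htr3a-KO. Both measures overlapped between the groups. Single arrays stood apart. The first principal component of the 6 arrays held 44.9% of their variance and placed control arrays 1 and 2 at 24.7 and 24.9, control array 3 at −8.7, and the Htr3a-KO arrays at −28.7, −13.0 and 0.7. Control array 3 thus lay among the Htr3a-KO arrays on this axis. The correlation of control array 3 with the 3 Htr3a-KO arrays was 0.9907 to 0.9923, across all probe sets except technical controls. It was 0.9886 with control array 1 and 0.9903 with control array 2, which correlated with each other at 0.9942. In Htr3a-KO array 1, 116 genes read more than 1 log2 unit above each of the 5 other arrays, against 0 to 7 genes for any other array. The SD over 3 arrays had a median of 0.13 log2 in control and 0.16 in Htr3a-KO.

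**Figure D1:**
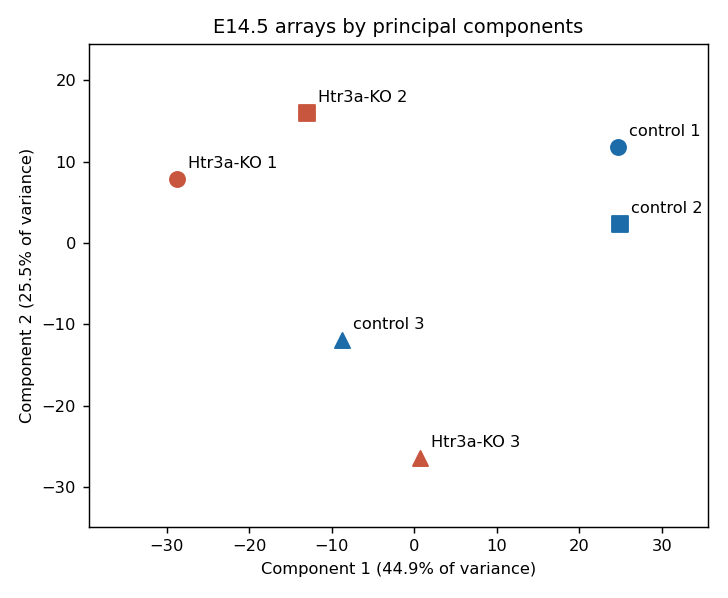
Principal components of the 6 E14.5 arrays, computed over the genes tested. Each point is 1 array, with the score on component 1 (44.9% of variance) across and on component 2 (25.5% of variance) upward. Control arrays 1 and 2 sit together on the right, and control array 3 sits on the left with the Htr3a-KO arrays.

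The 116 high genes of Htr3a-KO array 1 were led by transcripts of immune and blood cells. Cxcl10, a chemokine induced by interferon, read 10.39 there and 5.74 to 7.86 elsewhere. Ccl9, another chemokine, read 9.12 against at most 6.82, and Hba-x, an embryonic globin, 10.47 against at most 8.05. The gene in which this array lay farthest below the rest was Isl1, a transcription factor of striatal projection neurons, at 6.21 with 8.95 as the next lowest array. Htr3a-KO array 2 had the low reading of Xist, the transcript of the inactive X chromosome, at 7.87 against 11.31 to 12.24. It also read low for Acin1, which takes part in RNA splicing and apoptosis (8.06 against 9.78 to 10.40), and high for the ion channel gene Clic6 (8.59 against at most 6.92) and the dynein light chain gene Dynlrb2 (7.30 against at most 5.65). Control array 3 was lowest of the 6 in Tac1, the substance P precursor, at 8.72 and in Adarb2, an RNA-editing family member of CGE cells, at 6.22. Its list of genes more than 1 log2 outside the others held 0 above and 1 below. In control array 1 the homeobox gene Vax1 was highest at 9.57, and Hspa1b, a heat shock gene, at 10.71. Control array 2 was highest in Tac1 at 12.95 and in the retinoid receptor gene Rxrg at 8.86, which striatal neurons express. Htr3a-KO array 3 was lowest in the transporter gene Slc33a1, at 6.62 against 7.68 or more. Values without control array 3 or Htr3a-KO array 1 are given below beside the results they change most.

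The targeted gene was read by 1 probe set, and its place against the deleted part is not given in the sources used here. Htr3a measured 8.49, 7.99 and 7.65 in the control arrays and 7.41, 7.29 and 7.19 in the Htr3a-KO arrays. Every Htr3a-KO array was below every control array, with control array 3 the nearest. The difference, Htr3a-KO minus control, was −0.75 log2 (SE 0.26) and did not pass the test (limma, adjusted p = 0.708). Without control array 3 it was −0.94 (limma, adjusted p = 0.147). The control level at E14.5 was thus less far above the Htr3a-KO level than at later ages, where the difference was −3.51 at E18.5 and −1.94 at P2. The test of the change in difference from E14.5 to E18.5 gave −2.76 (limma, adjusted p = 0.0207), and from E14.5 to P2 −1.20 (limma, adjusted p = 0.760). The first of these was past the threshold of 0.05 in 15 of 19 alternative settings, with adjusted p of 0.00864 to 0.105 (limma). The looser threshold and the 1.5-fold minimum are among the 15 and reuse the main fit, so they could not differ from it. Leaving out control array 2 ended the call (limma, adjusted p = 0.0991), as did leaving out Htr3a-KO array 1 (0.105) or Htr3a-KO array 2 (0.0900). A block for replicate number in the model also ended it (limma, adjusted p = 0.052).

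At E14.5, 2 of 14292 genes passed the test (limma, adjusted p under 0.05), which is 0.014% of those tested. These were Lars2, which was higher in Htr3a-KO, and Pop1, which was lower. A further count uses no model. In 1288 genes, 9.01% of all, the 3 Htr3a-KO arrays and the 3 control arrays did not overlap, 712 of them (4.98%) with Htr3a-KO higher and 576 (4.03%) with it lower. With 3 arrays a group, such separation also arises where genotypes do not differ. The share was not tested against that, so it is a description. An unadjusted p under 0.05 was reached by 838 genes (5.86%), 545 higher and 293 lower. All of these 838 kept their direction when control array 3 was left out and when Htr3a-KO array 1 was, but 681 kept an unadjusted p under 0.05 without the first and 428 without the second. The 838 were chosen on arrays that these fits reuse, which favours a kept direction, so these counts are a description. The SE of a difference had a median of 0.15 log2 over all genes, and 3 arrays a group limit the precision.

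Lars2 encodes the mitochondrial leucyl-tRNA synthetase, which charges the leucine tRNA of mitochondrial translation. It measured 7.69, 7.56 and 7.56 in control and 8.54, 8.26 and 8.83 in Htr3a-KO. Control arrays lay close together and each Htr3a-KO array was above them. Lars2 rose 1.92-fold (difference 0.94, SE 0.13, limma, adjusted p = 0.0186). The call held without control array 3 (0.92, limma, adjusted p = 0.0105) and ended when control array 1 was left out (adjusted p = 0.0738), or control array 2 (0.118), or the first Htr3a-KO array (0.137), with the difference at 0.94 in the last. A higher level was measured at the later ages as well, by 1.29 at E18.5 (limma, adjusted p = 0.000331) and 0.83 at P2 (limma, adjusted p = 0.0307). The array carried 2 further Lars2 probe sets, and these did not follow. They differed by 0.04 (SE 0.11) and −0.29 (SE 0.11) at E14.5, so the rise was that of 1 probe set. Of 15 mitochondrial aminoacyl-tRNA synthetases tested, only Lars2 passed. The group had a median difference of 0.01, equal to that of all genes, with 8 members higher and 7 lower. Hars2, the histidyl enzyme, differed by −0.33 and Yars2, the tyrosyl enzyme, by −0.25, and neither passed (limma, adjusted p = 0.875 and 0.934).

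Pop1 encodes the largest protein of RNase P and RNase MRP, the ribonucleoproteins that process tRNA and ribosomal RNA precursors. Control arrays read 8.08, 7.95 and 8.19 and Htr3a-KO arrays 7.12, 7.45 and 7.26. The lowest control array stood above the highest Htr3a-KO array by more than the range of either group. Pop1 fell by 0.80 on the log2 scale (SE 0.10, limma, adjusted p = 0.0158), a 1.74-fold difference. The call held without control array 3 (−0.74, limma, adjusted p = 0.00786) and ended when control array 1 was left out (adjusted p = 0.0738) or the first Htr3a-KO array was (−0.72, adjusted p = 0.137). At E18.5 and P2 the difference was −0.09 and −0.08 (limma, adjusted p = 0.736 and 0.881). The test of the change from E14.5 did not pass at either age, with 0.70 at E18.5 (limma, adjusted p = 0.380) and 0.71 at P2 (limma, adjusted p = 0.549). The other Pop1 probe set differed by −0.04 (SE 0.11). Among the 10 proteins of the 2 complexes that were tested, Pop1 alone passed, and the median difference was −0.07 with 4 members higher and 6 lower. Rpp30 read 10.40, 10.43 and 10.39 in control and 10.36, 10.26 and 10.21 in Htr3a-KO, a difference of −0.13 without overlap (limma, adjusted p = 0.996), and Rpp25 differed by 0.22.

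**Figure D2:**
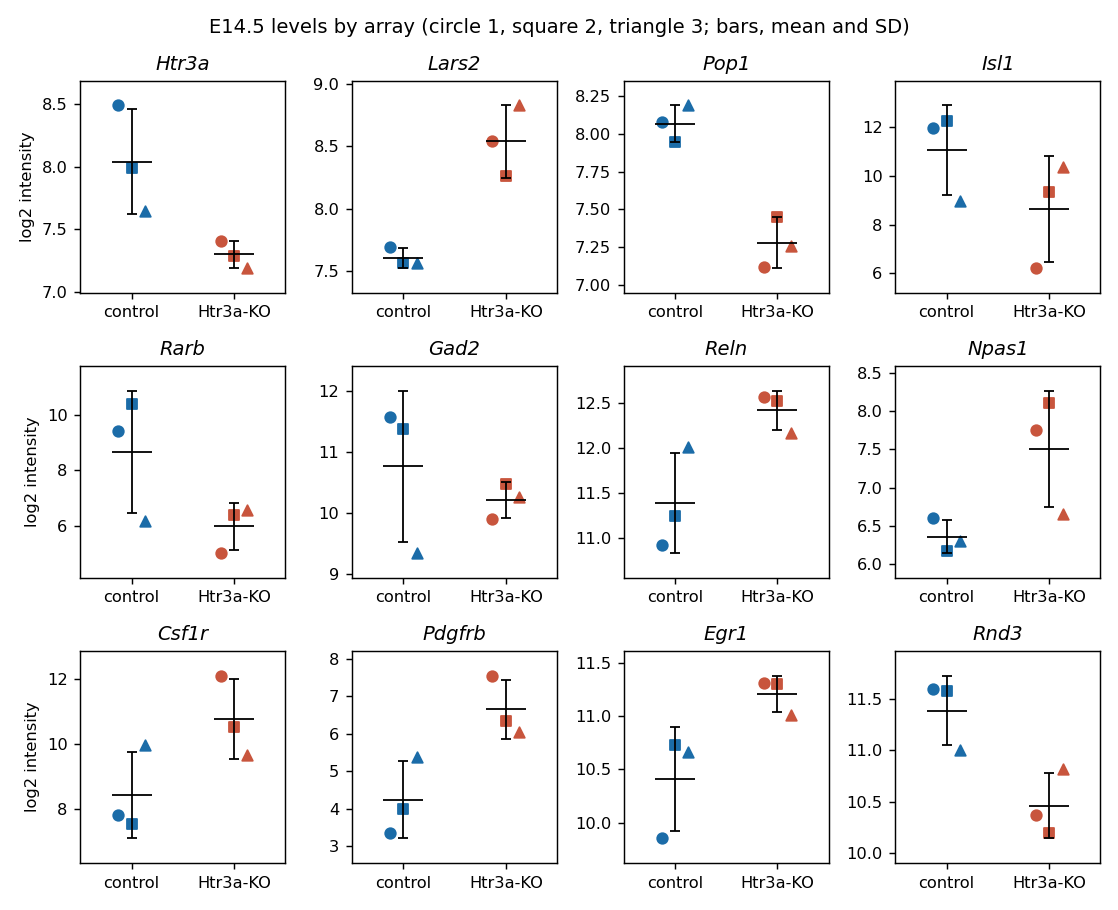
Log2 intensity of 12 genes in the 6 E14.5 arrays, with control on the left and Htr3a-KO on the right of each panel. Circles, squares and triangles are arrays 1, 2 and 3, and bars give the mean and SD of 3 arrays. Lars2 and Pop1 separate the groups with narrow spread, whereas in Isl1, Rarb and Csf1r control array 3 lies with the Htr3a-KO arrays and in Gad2 below them.

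Since both called genes moved in 1 of their probe sets, all 26104 probe sets that named 1 gene and passed the intensity filter were also fitted as rows of their own. This gave 6 calls (0.023%), 3 higher and 3 lower, of which 4 lay on chromosome 9. These counts are a description, since they include Lztfl1 probe sets that passed the filter through the Htr3a-KO arrays alone. The genes beyond Lars2 and Pop1 are named here because they were called in this fit, after their values were seen. A probe set of Lztfl1, which encodes a regulator of protein traffic into cilia, measured 3.77, 3.79 and 4.04 in control and 8.23, 7.98 and 8.22 in Htr3a-KO. The control readings were below the filter level of 5.255, and all 3 Htr3a-KO readings were well above it. A difference from so dim a level is a bound. Taking each control reading at the filter level, this probe set was at least 7.40-fold higher in Htr3a-KO at E14.5 (limma, adjusted p = 2.93e-09), at least 11.9-fold at E18.5 (limma, adjusted p = 5.23e-10) and at least 4.59-fold at P2 (limma, adjusted p = 1.97e-08). The p values are those of the fit to the readings as they stand, with means of 3.87 in control and 8.14 in Htr3a-KO at E14.5. Since the probe set passed the filter through the Htr3a-KO arrays alone, its call is given as a description. The fits without each of the 6 E14.5 arrays in turn kept the call (limma, adjusted p at most 9.58e-08). They used the same filtered probe set, so this too is a description and not a check.

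A second Lztfl1 probe set read 4.87, 4.82 and 4.72 in control and 6.21, 5.57 and 6.07 in Htr3a-KO, with all 3 control readings again below the filter level. It was at least 1.62-fold higher against that level (means of 4.80 and 5.95, limma, adjusted p = 0.0192), a call kept in 3 of the 6 fits without 1 array. This probe set too passed the filter through the Htr3a-KO arrays alone, so its call is likewise a description. The remaining 3 probe sets of the gene, all brighter, differed by −0.34, −0.13 and 0.83, and none passed. The brightest, which stood for Lztfl1 in the gene count above, was the one at −0.34. Lztfl1 thus had probe sets that differed in direction. Lars2 and Lztfl1 are both on chromosome 9, which also carries Htr3a. Lars2 lies more than 20 Mb from Htr3a, and in the gene count no gene within that distance passed. A probe set of Hinfp, a zinc finger factor of histone gene transcription on chromosome 9, read 8.24, 7.86 and 8.24 in control and 6.78, 6.77 and 6.50 in Htr3a-KO. Its difference was −1.43 (SE 0.21, limma, adjusted p = 0.0254), kept in 1 of the 6 fits without 1 array, while the other Hinfp probe set differed by −0.13. At E18.5 and P2 the called Hinfp probe set differed by −0.55 and −0.34 (limma, adjusted p = 0.262 and 0.787). A probe set of Ppp1cb, a catalytic subunit of protein phosphatase 1, read 7.78, 7.38 and 7.44 in control and 6.15, 6.70 and 6.12 in Htr3a-KO. That was a fall of 1.21 on the log2 scale (SE 0.18, limma, adjusted p = 0.0253), kept in 2 of the 6 fits without 1 array, and the 3 other Ppp1cb probe sets differed by 0.07, 0.15 and 0.07. The low Ppp1cb probe set was also lower at E18.5 (−1.49, limma, adjusted p = 0.0016) and at P2 (−1.25, limma, adjusted p = 0.0214).

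The genes with the next smallest p did not pass and are given as values. Col19a1, a collagen found at some interneuron synapses, read 5.78, 5.73 and 6.14 in control and 7.10, 7.33 and 6.51 in Htr3a-KO (difference 1.10, SE 0.18, limma, adjusted p = 0.103). At E18.5 and P2 its difference was 0.00 and −0.22. Slco1c1, a thyroid hormone transporter of brain endothelium, read 5.71, 5.21 and 5.83 against 7.23, 7.96 and 6.36 (1.60, SE 0.30, limma, adjusted p = 0.173). Abhd14a, a hydrolase gene on chromosome 9, read 7.93, 8.23 and 8.77 against 9.55, 9.19 and 9.72 (1.18, SE 0.23, limma, adjusted p = 0.186). In these 3 genes the groups did not overlap, and control array 3 was in each the control nearest to Htr3a-KO. H2-K1, a class I histocompatibility gene, read 7.54, 7.36 and 7.87 against 10.06, 8.83 and 8.45, a difference of 1.52 (SE 0.32) that was 1.05 without Htr3a-KO array 1 (limma, adjusted p = 0.278 and 0.963). The differences of Mmp2 (0.79, a matrix metalloproteinase), Lypd6 (1.12, a modulator of Wnt and nicotinic receptors), Manba (1.35, lysosomal beta-mannosidase), Thtpa (0.57, a thiamine triphosphatase) and Grasp (0.59, a scaffold for glutamate receptors) completed the 10 smallest p upward, with adjusted p of at most 0.306 (limma).

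Downward, Tmem25, an immunoglobulin-domain membrane protein gene, read 7.32, 7.45 and 7.26 in control and 6.36, 6.83 and 6.30 in Htr3a-KO (−0.85, SE 0.15, limma, adjusted p = 0.109). The other Tmem25 probe set differed by −0.12, with overlap. Pts, an enzyme of tetrahydrobiopterin synthesis and so of the cofactor needed to make serotonin, read 9.05, 8.98 and 9.17 against 8.57, 8.36 and 8.62 (−0.55, SE 0.10, limma, adjusted p = 0.166). Dis3l, a subunit of the cytoplasmic RNA exosome, read 7.97, 8.10 and 7.90 against 7.23, 7.39 and 7.34 (−0.67, SE 0.13, limma, adjusted p = 0.173). These 3 genes are on chromosome 9, the groups did not overlap in the readings listed, and control array 3 was not the lowest control in Pts. Pts passed at E18.5 (−0.66, limma, adjusted p = 0.0390) and P2 (−0.86, limma, adjusted p = 0.00425), and Dis3l at P2 (−0.82, limma, adjusted p = 0.0307). The other downward differences among the 10 smallest p were −0.52 for Fam216a, −0.54 for the mitochondrial carrier Slc25a29, −0.55 for the Polycomb component Pcgf1, −1.39 for Otor, −0.50 for Ubxn2b and −0.53 for the kinase Rps6ka6 (limma, adjusted p of 0.226 to 0.611). In Otor, a gene first described in the inner ear, control array 3 at 6.08 lay within the Htr3a-KO range of 5.44 to 6.24.

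Markers of the labelled cells were present in every array. Gad1, the other GABA-making enzyme, read 12.34, 12.29 and 10.88 in control and 11.71, 11.85 and 11.21 in Htr3a-KO. Gad2, whose promoter names the transgene, read 11.57, 11.38 and 9.34 in control and 9.90, 10.47 and 10.26 in Htr3a-KO. In both genes control arrays 1 and 2 were above the highest Htr3a-KO array and control array 3 was lowest of all 6. The differences were −0.25 (SE 0.30) and −0.55 (SE 0.44, limma, adjusted p = 0.996 and 0.969). The same array was lowest in all 8 GABAergic genes tested, which include the vesicular GABA transporter Slc32a1 and the homeobox genes Dlx1, Dlx2, Dlx5 and Dlx6. Their mean level was 10.79, 10.63 and 9.02 in control and 9.78, 9.88 and 9.66 in Htr3a-KO. Of the 8, 0 passed and 7 were on the lower side in Htr3a-KO, with a median difference of −0.36 beside 0.01 for all genes. Without control array 3 the median was −0.87 and 1 gene was called lower (Dlx6, at −1.84), beside 0.350% of all genes. The Gad2 difference was then −1.26 (limma, adjusted p = 0.051). In bulk arrays fewer GABAergic cells and less RNA per such cell cannot be told apart.

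Of 20 CGE interneuron genes tested, 10 were higher and 10 lower, with a median of 0.01, the same as for all genes. None passed with all arrays. Their mean level was 8.42, 8.37 and 8.19 in control and 8.66, 8.54 and 8.28 in Htr3a-KO. Sp8, a transcription factor of CGE and olfactory bulb interneurons, read 9.15, 8.64 and 7.73 in control and 8.34, 9.34 and 8.30 in Htr3a-KO. Nr2f2, the COUP-TFII factor enriched in the CGE, read 10.29, 10.12 and 8.83 against 10.06, 9.10 and 9.99. The groups overlapped in both. Prox1, a factor that CGE interneurons keep after birth, was dim at 4.74 to 6.86, and Vip, a peptide of mature CGE cells, at 4.68 to 5.39.

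The groups did not overlap in 4 of the 20 CGE genes, of which Htr3a was lower, beside 9.01% of all genes. Reln, the secreted layering signal reelin made by Cajal-Retzius cells and many interneurons, read 10.92, 11.25 and 12.01 in control and 12.57, 12.52 and 12.17 in Htr3a-KO (1.03, SE 0.28, limma, adjusted p = 0.659). The Reln difference was 1.34 without control array 3 (limma, adjusted p = 0.0301). Npas1, a transcription factor of ganglionic eminence progenitors and interneurons, read 6.60, 6.17 and 6.30 against 7.75, 8.11 and 6.66 (1.15, SE 0.33, limma, adjusted p = 0.659). Ndnf, a marker of layer 1 neurogliaform cells, read 6.60, 6.97 and 7.29 against 8.13, 7.69 and 7.66 (0.87, SE 0.31, limma, adjusted p = 0.710). Control array 3 was the highest control for Reln and Ndnf but not for Npas1.

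Interneuron genes of the medial ganglionic eminence (MGE), the neighbouring source that GAD65-GFP cells could also come from, were mostly on the higher side. In this list 13 of 15 were higher and 2 lower, with a median of 0.30, and 0 passed. Lhx6, the factor that specifies MGE interneurons, read 9.43, 9.74 and 9.63 in control and 10.12, 10.60 and 9.95 in Htr3a-KO (0.62, SE 0.33, limma, adjusted p = 0.884). Sst, the peptide somatostatin of one MGE class, read 9.97, 10.30 and 9.85 against 10.81, 10.40 and 10.50 (0.53, SE 0.25, limma, adjusted p = 0.861). These 2 of the 15 had groups without overlap, beside 4.98% of all genes with Htr3a-KO higher. Nkx2-1, which MGE progenitors express and cortical interneurons switch off, was 5.90 to 6.15 in all 6 arrays. Calb1, a calcium-binding protein, went the other way at 10.07, 9.70 and 8.14 in control and 8.45, 8.35 and 8.46 in Htr3a-KO (−0.88, SE 0.39, limma, adjusted p = 0.828), and was called lower without control array 3 (−1.46, limma, adjusted p = 0.0301). Mef2c, a factor of postmitotic interneurons, differed by 0.54 with overlap.

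Genes of striatal projection neurons, the other main GABAergic product of the ventral telencephalon, had the lowest median of the 22 lists examined. All 17 tested were on the lower side in Htr3a-KO with a median of −0.94, and 0 passed. The mean level of the list was 9.78, 10.36 and 8.40 in control and 7.92, 8.56 and 8.89 in Htr3a-KO. Control array 3 lay inside the Htr3a-KO range, and Htr3a-KO array 1 was lowest. Isl1 read 11.97, 12.25 and 8.95 in control and 6.21, 9.34 and 10.38 in Htr3a-KO (−2.41, SE 0.87, limma, adjusted p = 0.718). The Isl1 difference was −1.20 without Htr3a-KO array 1 and −3.47 without control array 3 (limma, adjusted p = 0.999 and 0.0543). Rarb, a retinoic acid receptor of the striatum, read 9.42, 10.39 and 6.19 against 5.01, 6.40 and 6.56 (−2.68, SE 0.71, limma, adjusted p = 0.659). Crabp1, a retinoic acid-binding protein, read 7.04, 8.48 and 7.52 against 6.54, 6.16 and 7.24 (−1.03, SE 0.31, limma, adjusted p = 0.659). Each of these 3 genes overlapped between groups.

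Non-overlap in the striatal list was limited to Bcl11b, at 12.98, 12.98 and 12.87 against 12.67, 12.81 and 12.67, and the dopamine receptor gene Drd1, at 7.81, 8.55 and 7.92 against 7.75, 7.56 and 7.45. Their differences were −0.23 and −0.51, and the 2 of 17 stand beside 4.03% of all genes. Without control array 3 the list median was −1.28 and 7 of the 17 were called lower, beside 0.350% of all genes, among them Rarb (−3.92, limma, adjusted p = 0.00012), Zfhx3 (−2.52, limma, adjusted p = 0.0105) and Six3 (−1.65, limma, adjusted p = 0.0223). Without Htr3a-KO array 1 the median was −0.67, with Zfhx3 at −1.05 and Six3 at −0.50. At E18.5 and P2 the Isl1 difference was 0.31 and −0.29 and the Rarb difference −0.37 and −0.20. The tests of these changes from E14.5 did not pass (limma, adjusted p of 0.685 to 0.803).

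Several excitatory neuron genes were bright in every E14.5 array, though Slc17a7, a vesicular glutamate transporter, was dim at 4.59 to 5.73. Neurod6, a transcription factor of cortical glutamatergic neurons, read 12.12, 11.97 and 12.38 in control and 12.15, 12.07 and 12.20 in Htr3a-KO, a difference of −0.02 (SE 0.37). Eomes, which marks intermediate progenitors of the cortex, read 11.15, 11.15 and 11.86 against 11.36, 11.70 and 11.88. Of 18 such genes 14 were higher and 4 lower in Htr3a-KO, the median was 0.13, and 0 passed. The median was 0.43 without control array 3. The list mean was 9.54, 9.61 and 10.21 in control and 9.84, 9.77 and 10.13 in Htr3a-KO, so that control array 3, lowest in GABAergic genes, was highest here. Tbr1, a factor of deep-layer neurons, was the only member without overlap, at 10.68, 10.42 and 10.85 against 10.28, 10.32 and 10.34 (−0.34, SE 0.42).

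**Figure D3:**
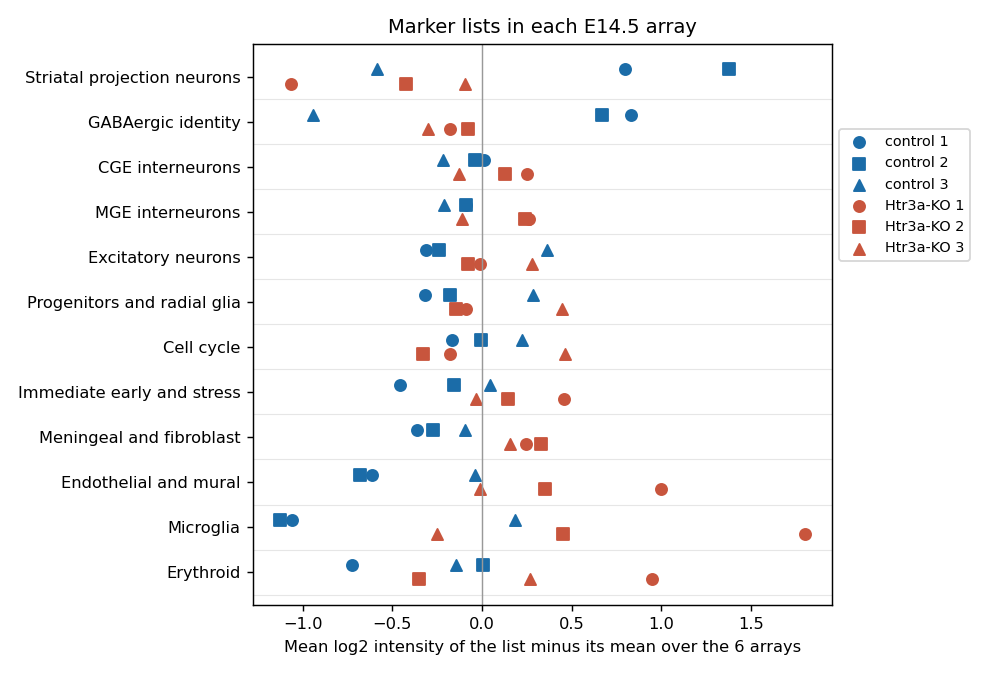
Mean log2 intensity of 12 marker lists in each E14.5 array, given as the distance from the list's mean over the 6 arrays. Blue marks are control and red marks Htr3a-KO arrays, with circles, squares and triangles for arrays 1, 2 and 3. Control array 3 sits left of all others in the GABAergic list, and Htr3a-KO array 1 sits far right in the microglial and endothelial lists.

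Semaphorins and their plexin and neuropilin receptors steer tangentially migrating interneurons away from the striatum and within the cortex. Of 29 tested 0 passed, 19 were higher and 10 lower, and the median was 0.11. Sema3a, a repellent ligand, read 8.74, 9.09 and 8.96 in control and 8.87, 9.13 and 9.05 in Htr3a-KO, a difference of 0.09 (SE 0.25, limma, adjusted p = 0.996). Nrp1, its binding receptor, read 11.02, 10.74 and 11.42 against 11.50, 11.50 and 11.19 (0.34, SE 0.30, limma, adjusted p = 0.983). Plxna4, a signalling coreceptor, read 9.61, 9.92 and 10.06 against 9.87, 9.17 and 10.36 (−0.06, SE 0.25, limma, adjusted p = 0.997). All 3 overlapped, and the difference of Plxna4 was smaller than the spread within either group. Other probe sets differed by 0.40 for Plxna4 and by −0.22 and 0.07 for Sema3a.

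In 5 members of this family the groups did not overlap, all with Htr3a-KO higher, which is 5 of 29 beside 4.98% of all genes. Sema4d, a membrane-bound semaphorin also made by immune and glial cells, read 8.59, 8.64 and 9.34 in control and 10.30, 9.45 and 9.77 in Htr3a-KO (0.98, SE 0.28, limma, adjusted p = 0.659). Sema4f read 8.79, 9.16 and 9.15 against 9.51, 9.39 and 9.34 (0.38, SE 0.16, limma, adjusted p = 0.815). Sema4b, Sema6a and Plxna3 differed by 0.18, 0.23 and 0.16. Plxnc1, the receptor of Sema7a, read 9.22, 9.21 and 9.37 in Htr3a-KO, with control array 3 inside that range at 9.30 and the other controls above it (−0.47, SE 0.16, limma, adjusted p = 0.708). Plxnc1 was called lower without control array 3 (−0.69, limma, adjusted p = 0.0238), the one call of the 29 in that fit, beside 0.350% of all genes.

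Among 37 other guidance genes, covering chemokine, neuregulin, slit, netrin, ephrin and neurotrophin signals, 0 passed and the median was 0.00. Cxcr4, the chemokine receptor that holds interneurons in their migratory streams, read 7.71, 7.54 and 7.61 in control and 8.32, 7.85 and 7.60 in Htr3a-KO (0.30, SE 0.24). Its partner receptor Ackr3 read 10.75, 10.88 and 10.77 against 11.16, 11.35 and 10.60 (0.24, SE 0.23). Both overlapped. Nrg1, an attractant of the cortical route, was without overlap at 7.75, 7.79 and 7.52 in control and 7.09, 7.04 and 7.39 in Htr3a-KO (−0.51, SE 0.16, limma, adjusted p = 0.659). Epha4, an ephrin receptor, was lower without overlap (−0.39, SE 0.20), and Nrg2 and the netrin receptor gene Neo1 were higher without overlap (0.13 and 0.22). Robo1, a slit receptor, differed by −0.24 (SE 0.34), and Ntn1, the ligand netrin 1, by −0.74 (SE 0.31, limma, adjusted p = 0.808), both with overlap. The 2 genes without overlap in each direction stand beside 4.98% of all genes higher and 4.03% lower. The Ntn1 difference was −1.14 without control array 3 (limma, adjusted p = 0.0691).

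The machinery of migration, including microtubule proteins, small GTPases and the reelin pathway, had 0 of 37 genes past the threshold and a median of 0.00. Dcx, the microtubule protein of migrating neurons, read 13.04, 13.07 and 13.02 in control and 13.18, 13.35 and 13.06 in Htr3a-KO (0.15, SE 0.11, limma, adjusted p = 0.941). Rnd3, a small GTPase that limits RhoA in migrating neurons, read 11.60, 11.58 and 11.00 against 10.37, 10.19 and 10.82 (−0.93, SE 0.30, limma, adjusted p = 0.685). Cdkn1b, a cyclin kinase inhibitor that also acts on migration, read 10.07, 10.20 and 9.95 against 9.75, 9.46 and 9.91 (−0.37, SE 0.14, limma, adjusted p = 0.749). Rnd3 and Cdkn1b were the 2 members without overlap, against 9.01% of all genes, and in both control array 3 was the lowest control. Rac1 differed by −0.24 (SE 0.15).

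Of 19 serotonin receptor and turnover genes listed, 9 had a probe set above the filter, and 0 passed. The group that passed the filter had a median of 0.07, with 6 higher and 3 lower. Besides Htr3a, the one member without overlap was Htr1a, an inhibitory receptor, at 6.21, 6.34 and 6.23 in control and 6.35, 6.44 and 6.50 in Htr3a-KO (0.17, SE 0.17), so that 2 of 9 did not overlap beside 9.01% of all genes. Maoa, which degrades serotonin, differed by 0.19 (SE 0.12), and Htr7, a receptor coupled to cyclic AMP, by −0.28 (SE 0.19). Htr3b, the partner subunit of Htr3a, was below the intensity filter.

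GABA, glutamate and acetylcholine receptors and chloride transporters had 0 of 25 past the threshold and a median of 0.03. Without overlap and higher were Grik1, a kainate receptor subunit (6.48, 6.73 and 6.56 in control, 7.05, 7.02 and 6.95 in Htr3a-KO, difference 0.42, SE 0.17, limma, adjusted p = 0.762), Gria1 (0.38) and Gabrb1 (0.50), which is 3 of 25 beside 4.98% of all genes. Voltage-gated calcium channel subunits, through which depolarisation raises calcium in migrating cells, were higher in 11 of 13 and lower in 2, with a median of 0.16 and 0 past the threshold. Cacna2d2, an auxiliary subunit, read 8.88, 8.0 and 8.91 in control and 9.58, 9.55 and 9.42 in Htr3a-KO (0.92, SE 0.29, limma, adjusted p = 0.685). Cacna1d, a pore subunit of L-type channels, read 7.07, 6.99 and 7.56 against 7.78, 7.90 and 7.59 (0.55, SE 0.25, limma, adjusted p = 0.829). These were the 2 of 13 without overlap, beside 4.98% of all genes with Htr3a-KO higher.

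Immediate early and stress genes, which report recent activity but also cell handling, were higher in 23 of 28 and lower in 5, with a median of 0.38 beside 0.01 for all genes. None passed with all arrays. The list mean was 8.26, 8.56 and 8.76 in control and 9.17, 8.86 and 8.68 in Htr3a-KO, so the groups overlapped through control array 3 and Htr3a-KO array 3. Egr1, a zinc finger factor induced by activity, read 9.85, 10.73 and 10.66 in control and 11.31, 11.30 and 11.01 in Htr3a-KO (0.79, SE 0.18, limma, adjusted p = 0.392). Egr2 read 5.34, 6.23 and 6.74 against 7.92, 7.15 and 6.51 (1.09, SE 0.35, limma, adjusted p = 0.685), and Zfp36, which destabilises inflammatory messengers, differed by 0.88 (SE 0.27). Egr1 and Klf2 (0.73), 2 of the 28, had groups without overlap, beside 4.98% of all genes. Without control array 3, 2 of the 28 were called higher, beside 0.595% of all genes, Egr1 among them (0.92, limma, adjusted p = 0.0382), and without Htr3a-KO array 1 the list median was 0.26. Microglial and endothelial genes moved in the same arrays, as given below, and their part in these values was not tested.

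Cell cycle genes had a median of 0.02, with 15 of 30 higher, 15 lower, 0 past the threshold and 0 without overlap. Their mean level was 9.66, 9.82 and 10.05 in control and 9.65, 9.50 and 10.29 in Htr3a-KO, highest in array 3 of each group. Progenitor and radial glial genes followed the same 2 arrays, at 8.30, 8.44 and 8.90 in control and 8.53, 8.47 and 9.06 in Htr3a-KO. Of 22 tested, 14 were higher and 8 lower, with a median of 0.19, 0.49 without control array 3, and 0 past the threshold. Nes, the intermediate filament of neural progenitors, read 8.94, 9.20 and 10.06 in control and 9.51, 9.40 and 10.38 in Htr3a-KO. Sox2 read 12.04, 11.90 and 11.41 against 11.52, 11.48 and 11.65, a difference of −0.23 (SE 0.22). Apoptosis genes had 0 of 18 past the threshold, 0 without overlap and a median of 0.06, and Casp8, an initiator caspase, differed by 0.76 (SE 0.24, limma, adjusted p = 0.665) and by 0.46 without Htr3a-KO array 1.

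Genes of cells that a sort for interneurons should leave out were on the higher side in Htr3a-KO. All 18 microglial genes tested were higher, with a median of 1.35, and 0 passed. The list mean was 6.21, 6.14 and 7.45 in control and 9.07, 7.72 and 7.02 in Htr3a-KO. Htr3a-KO array 1 was highest, and control array 3 read above Htr3a-KO array 3. Csf1r, the receptor on which microglia depend, read 7.80, 7.53 and 9.97 in control and 12.11, 10.53 and 9.68 in Htr3a-KO (2.34, SE 0.83, limma, adjusted p = 0.710). P2ry12, a receptor specific to microglia in brain, read 4.44, 5.04 and 6.21 against 8.50, 6.51 and 5.20, below the filter level in control arrays 1 and 2 and in Htr3a-KO array 3. Aif1, another microglial marker, was below that level in the same 3 arrays, at 4.66, 4.92 and 5.65 in control and 7.31, 5.63 and 5.02 in Htr3a-KO. The groups did not overlap for 2 of the 18, beside 4.98% of all genes. These were Mrc1 and Pf4, genes of macrophages at brain borders, which differed by 1.40 and 1.05 (limma, adjusted p = 0.804 and 0.756). Without Htr3a-KO array 1 the median of the list was 0.65, and without control array 3 it was 1.80.

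Endothelial and mural genes, those of vessel walls, were higher in 19 of 20 with a median of 0.70, and 0 passed. Their mean level was 6.43, 6.36 and 7.00 in control and 8.04, 7.39 and 7.03 in Htr3a-KO, in the same order of arrays as the microglial list except that Htr3a-KO array 3 was just above control array 3. Cldn5, a tight junction protein of the blood-brain barrier, read 7.25, 6.80 and 7.94 in control and 9.54, 8.58 and 7.94 in Htr3a-KO (1.36, SE 0.62). Pdgfrb, the pericyte receptor, read 3.35, 3.99 and 5.37 against 7.55, 6.35 and 6.05 (2.41, SE 0.55, limma, adjusted p = 0.418). Control arrays 1 and 2 were below the filter level in Pdgfrb. In 7 of the 20 the groups did not overlap, against 4.98% of all genes, each with Htr3a-KO higher. These include Slco1c1, described above, and without control array 3 there were 3 calls, all higher, beside 0.595% of all genes. The list median was 0.91 without that array and 0.49 without Htr3a-KO array 1.

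Meningeal and fibroblast genes were higher in all 11 tested, with a median of 0.46 and 0 past the threshold. In 5 of the 11 the groups did not overlap, beside 4.98% of all genes with Htr3a-KO higher. Mmp2 read 7.55, 7.60 and 7.62 in control and 8.53, 8.59 and 8.03 in Htr3a-KO. Col3a1, a fibrillar collagen, read 5.66, 5.27 and 6.54 against 8.08, 6.96 and 6.77 (1.45, SE 0.50, limma, adjusted p = 0.708), and Fn1, fibronectin, 8.90, 8.71 and 9.61 against 10.43, 9.81 and 9.71 (0.91, SE 0.32, limma, adjusted p = 0.708). Red cell genes had a median of 0.47 over 6 tested, 0.27 without Htr3a-KO array 1, with 4 higher and 2 lower with 0 past the threshold, and Hbb-y, an embryonic globin, read 7.56, 10.19 and 9.75 in control and 12.64, 8.47 and 10.43 in Htr3a-KO. Of 4 sex-linked genes, with a median of 0.15 and 0 past the threshold, the Y-linked Kdm5d was lowest in control array 1 at 6.80 and highest, at 9.14, in Htr3a-KO array 2, the array with the low Xist. What these cell types or the sex of the pooled embryos contributed to any difference above was not tested.

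Leaving out 1 array at a time changed the count of calls by over 1.5 times for 5 of the 6 arrays. With all arrays there were 2 calls. Leaving out the first control array gave 0 calls (limma, 473 genes at an unadjusted p under 0.05), the second gave 1 and the third gave 135 (0.945% of genes). For the Htr3a-KO arrays the counts were 0 when the first was left out (limma, 618 genes at an unadjusted p under 0.05), 3 for the second and 11 for the third. Of the 135, 85 were higher (0.595%) and 50 lower (0.350%), and Lars2 and Pop1 were among them. In 124 of the 135 control array 3 lay nearer to the Htr3a-KO mean than to that of the other 2 controls, and in 69 it lay within the Htr3a-KO range. Over all genes it lay nearer to the Htr3a-KO mean in 58.6%. The 135 were chosen by leaving this array out, which favours such genes, so their count is a description. All 135 had the same direction with all arrays. Without both control array 3 and Htr3a-KO array 1 there were 50 calls, 25 higher and 25 lower, and 47 of them were among the 135.

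**Figure D4:**
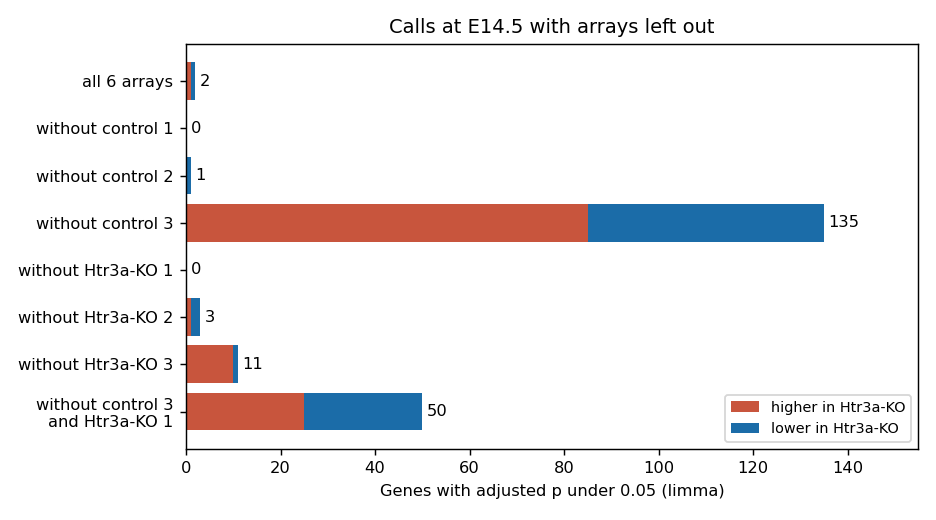
Genes called at E14.5 (limma, adjusted p under 0.05) with all 6 arrays and with arrays left out. Bar length is the number of genes, red for higher and blue for lower in Htr3a-KO. The count is 135 without control array 3 and at most 11 without any other single array.

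The genes with the smallest p in the fit without control array 3 were chosen in the same way, and their values are given for that fit. Dlk1, an imprinted Notch-pathway ligand, read 9.0, 9.16 and 6.48 in control and 7.20, 6.19 and 6.60 in Htr3a-KO, a difference of −1.55 with all arrays and −2.42 without control array 3 (limma, adjusted p = 0.665 and 0.00012). Nova1, a neuronal splicing factor, read 8.96, 8.96 and 7.72 against 7.61, 7.83 and 7.76 (−0.81 and −1.23, limma, adjusted p = 0.659 and 0.00012). Rgs2, a regulator of G protein signalling, read 12.05, 12.07 and 10.37 against 10.49, 10.65 and 10.53. In these genes control array 3 was inside the Htr3a-KO range or below it. Magel2, an imprinted gene, was the exception, since its control array 3 at 7.93 stood just above the highest Htr3a-KO array at 7.89, with 9.93 and 9.57 in the other controls.

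On the higher side without control array 3 were Nfix, a nuclear factor of radial glia and maturing neurons (11.60, 11.45 and 12.51 in control, 12.58, 12.50 and 12.76 in Htr3a-KO, 1.09 without the array, limma, adjusted p = 0.00128), Fkbp9, an endoplasmic reticulum isomerase (1.68, limma, adjusted p = 0.00128), and Ttyh2, a chloride channel gene (1.58, limma, adjusted p = 0.00108). Nek6, a mitotic kinase, Tnfaip8, an apoptosis regulator, and Flrt1, an adhesion molecule of the fibronectin leucine-rich family, were called at 1.22, 1.39 and 0.89. With all arrays the adjusted p of these 6 genes was 0.659 to 0.743 (limma). Otor and Rarb completed the set on the lower side. At E18.5 and P2, where the arrays are others, none of these 12 genes passed, and their differences there lay between −0.45 and 0.60.

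Genes near the targeted locus were counted apart. Htr3a lies on chromosome 9 (positions by GRCm38.p6). Of 290 genes tested within 20 Mb of it, the groups did not overlap in 46 (15.9%), 23 higher and 23 lower, beside 8.77% of 13404 genes on other chromosomes and 10.8% of 509 genes on the rest of chromosome 9. Within 10 Mb the share was 34 of 171 (19.9%). The median difference was −0.01 within 20 Mb. In the gene count no gene in that window passed with all arrays, and Lars2, the called gene on chromosome 9, lies farther away. The called probe sets of Lztfl1 and Hinfp, also on chromosome 9, did not stand for their genes in that count. Their distance from Htr3a is not given here. The difference between these shares was not tested. Of the 46, 27 had the same sign of difference at both E18.5 and P2, as did 17 of the 34 within 10 Mb. On the rest of chromosome 9, 27 of 55 did, and on other chromosomes 363 of 1175. Chromosome 9 carried 800 of the genes tested (5.6%) and held 2 of the 10 genes of smallest p upward and 3 of the 10 downward. The strain of the mice and the origin of the mutation are not given in the sources used here, so distance from Htr3a is reported as a measured property of these genes.

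Among these genes, Tmem25, Pts and Dis3l are described above. Il18, an inflammatory cytokine, read 7.68, 7.49 and 7.62 in control and 8.73, 8.52 and 8.45 in Htr3a-KO (0.97, SE 0.24, limma, adjusted p = 0.610), with 1.06 at E18.5 and 0.57 at P2. Rps25, a protein of the small ribosomal subunit, read 9.63, 9.83 and 9.60 against 8.79, 9.04 and 8.82 (−0.80, SE 0.22, limma, adjusted p = 0.659), with −0.92 at E18.5 and −0.74 at P2. In both genes each group was tight, control array 3 lay with the other controls and Htr3a-KO array 1 with its own group. Both were named for a small p, which favours tight and separate groups, so this describes their values only. The differences without Htr3a-KO array 1 were 0.89 and −0.76.

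**Figure D5:**
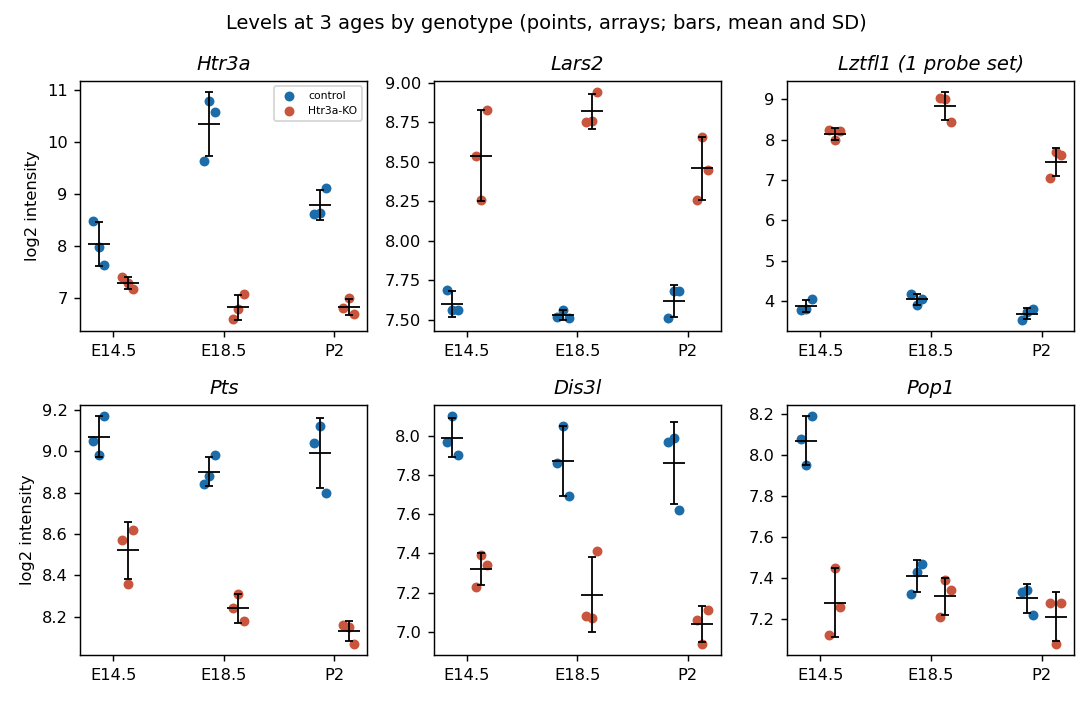
Log2 intensity of 6 genes in control (blue) and Htr3a-KO (red) arrays at E14.5, E18.5 and P2. Each point is 1 array, and bars give the mean and SD of 3 arrays. The genotypes are separate at all 3 ages for Htr3a, Lars2, the Lztfl1 probe set, Pts and Dis3l, and the gap in Pop1 is widest at E14.5.

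The difference at E14.5 was set against that at each later age by a test of the change in difference over all genes. From E14.5 to E18.5, 1 gene passed (0.007%), which was Htr3a, and 1032 genes had an unadjusted p under 0.05. From E14.5 to P2, 0 genes passed (0%) by limma and 900 had an unadjusted p under 0.05. Without control array 3 the 2 counts were 16 and 12, and without the third Htr3a-KO array 6 and 2. For Lars2 the change was 0.35 at E18.5 and −0.11 at P2 (limma, adjusted p = 0.694 and 0.952), and for Csf1r −2.01 and −4.00 (limma, adjusted p = 0.708 and 0.760). A change that missed the threshold does not show that the ages were alike.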

How the data were processed

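RNA of sorted interneurons was measured on 18 Affymetrix Mouse Genome 430 2.0 arrays, 3 for each of 6 groups of age and genotype, and the 6 arrays of E14.5 are reported. Per the series' design text, the authors normalized the signals by RMA (robust multi-array averaging) with the software Partek Genomic Suite 6.6, and the deposited values are log2 intensities, used here as given. Of 45101 probe sets, 64 were controls, and the array annotation named 1 gene for 34945. Probe sets in the lowest 30% by mean over all arrays (under 5.255) were left out, and the brightest remaining probe set stood for each of 14292 genes. Arrays give no counts, so their number limits the precision.

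A linear model in limma 3.58.1 (R 4.3.3) gave each of the 6 groups a mean and shared the spread among them, with 12 residual degrees of freedom. Moderated p-values were adjusted by Benjamini-Hochberg over all genes, and the threshold was 0.05. Differences are Htr3a-KO minus control on the log2 scale, and arrays are listed in the order of their labels' replicate numbers. The groups do not overlap where every array of one lies above every array of the other.

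The arrays compared and the 22 gene lists were chosen with earlier results of these data known. Named genes were Htr3a, Gad1, Gad2, Plxna4, Sema3a and Nrp1, the genes called, the 10 smallest p each way, up to 3 members of a list by p, up to 4 genes farthest outside the others for each array, the 6 smallest p each way without control array 3, those called for a change between ages, and the 5 smallest p within 20 Mb of Htr3a. Further list members are named as well-known markers or because their groups did not overlap, after their values were seen, and some genes the rule allows are not described. Gene positions came from RefSeq's GRCm38.p6 table. The tests were tried on simulated data first. The alternatives varied the filter, probe-set rule, normalization, variance model, array weights, replicate block, threshold and arrays used. Leaving out each array in the fit of every probe set was added after seeing the data.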

Additional observations from a re-analysis of the deposited data

Results flagged for a closer look

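The difference in Htr3a between Htr3a-KO and control was larger at E18.5 than at E14.5, and the test of that change set it apart. The change was −2.76 on the log2 scale (limma, adjusted p = 0.0207), from −0.75 at E14.5 to −3.51 at E18.5, and all 3 Htr3a-KO arrays were below all 3 control arrays at both ages. Over the alternatives it ranged from −2.98 to −2.49. Groups of 3 arrays are too small for a test of single outlying arrays.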

How the results depend on the processing

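The count of 2 genes called at E14.5 was 1 when a gene's probe sets were averaged (Lztfl1, at 1.16), 6 with every probe set as its own row, 119 with array weights, 0 in a fit of the 6 E14.5 arrays alone (limma, 745 genes at an unadjusted p under 0.05), 0 to 135 without single arrays and 50 without control array 3 and Htr3a-KO array 1. The Lztfl1 average includes the probe sets that passed the filter through the Htr3a-KO arrays alone, so that call is a description. Fewer arrays set the spread in the fit of 6 arrays, and for the other settings the cause was not tested. The 119 calls shared 53 genes with the 135. The count was 2 or 3 with other filters, normalizations, variance models and thresholds. Over all settings the Lars2 difference was 0.23 to 1.08 (limma, adjusted p of 0.00268 to 0.921) and that of Pop1 −0.88 to −0.42 (limma, adjusted p of 0.00486 to 0.921).

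For the change in difference from E14.5 to E18.5 the count of 1 was 41 with array weights, 0 with the replicate block, 0 to 16 without single arrays and 8 without both arrays. To P2 the count of 0 (limma) was 0 to 12 without single arrays and 9 without both. The replicate block left 2 calls at E14.5 and put Htr3a at an adjusted p of 0.052 (limma) for the change to E18.5. The deviations of control and Htr3a-KO arrays with the same replicate number correlated at −0.12, −0.01 and −0.04. Those of arrays with different numbers correlated at −0.23 to 0.29. Deviations within so small a group depend on each other. These correlations therefore cannot show whether arrays with the same number were paired.

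Of 1992 recomputed differences of 100 genes, 1877 kept their direction and side of the threshold, 89 came to pass it and 9 no longer did. A further 17, of 8 genes whose difference lay between −0.34 and 0.19, changed sign, and for these the cause was not tested. When probe sets were averaged these were Plxna4 (0.17), Sema3a (−0.07), Maoa (−0.04), Dcx (−0.00), Lztfl1 (1.16) and Ppp1cb (−0.23), and with array weights Neurod6 (0.05). Without 1 array, or without both control array 3 and Htr3a-KO array 1, Gad1 ran from −0.79 to 0.01, Plxna4 from −0.34 to 0.25, Sema3a from −0.01 to 0.17, Neurod6 from −0.11 to 0.10 and Ppp1cb from −0.12 to 0.19. Of 440 recomputed list medians 20 moved by more than the spread between arrays.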
